A study of Mus musculus with 4 samples.

Results

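The semaphorins, plexins, neuropilins, ephrins, Eph receptors, Slits and Robo receptors are the ligands and receptors by which cells and axons steer, repel and adhere to one another. All mouse protein-coding genes whose symbols carry these family names were taken, by name alone and not by their values, although the families were picked with earlier results of these data known. This gave 60 genes of the 52636 gene identifiers in the count tables. They were measured by RNA-seq in tdTomato+ cells sorted from E12.5 to E12.75 mouse kidneys, in 2 control libraries (Eya1CreER;tdTomato) and 2 libraries of the conditional *Eya1* knockout, Eya1cKO (Eya1CreER;*Eya1* fl/fl;tdTomato). *Eya1* is a transcriptional co-activator and phosphatase that nephron progenitors need. The tamoxifen-inducible CreER sits at the *Eya1* locus and is carried by the controls too, the tdTomato reporter marks the cells in which it was active together with their descendants, and all kidneys were collected 48 h after the first tamoxifen dose from mice of mixed genetic background. Cell suspensions of the embryos of a genotype were combined before sorting, and each library came from its own portion of 5000 cells sorted at the same time. The p-values therefore measure the spread between such portions and not between animals.

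Class 3 semaphorins are secreted and act through neuropilins together with plexins, while the other vertebrate semaphorins are anchored in the membrane and bind plexins directly. Ephrins and Eph receptors are both bound to cells, so they signal at contacts and in both directions, with ephrin-A ligands tied to the membrane by a lipid anchor and ephrin-B ligands spanning it. Slits are large secreted proteins that bind Robo receptors. In the kidney, *Slit2* and *Robo2* restrict where the ureteric bud grows out of the nephric duct, and ephrin-B2, neuropilins, plexin D1 and *Robo4* are well known from blood vessels.

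The libraries held 35411905 and 37999342 reads assigned to genes in the controls and 22239293 and 17457452 in Eya1cKO. The targeted gene *Eya1* had 6612, 6420, 377 and 219 reads in control 1, control 2, Eya1cKO 1 and Eya1cKO 2, or 8.23% of the control level. The Eya1cKO libraries were shallower, with a read in 21455 and 20538 genes against 26486 and 27091 in the controls. Among 2858 genes chosen by a control mean of 20 to 50 reads, 24.1% and 30.1% were without a read in Eya1cKO 1 and Eya1cKO 2. In the controls 0.42% and 0.665% were, but few zeros there follow from choosing the genes on the controls. Genes missed by the shallower libraries and genes lost in Eya1cKO cannot be told apart in this set. Marker genes of other cells also moved between the genotypes. CPM (counts per 1000000, with library sizes scaled by the trimmed mean of M-values, TMM) was summed over each marker list. For 10 nephron progenitor markers it was 2048 and 2056 in the controls and 424 and 388 in Eya1cKO, and 9 of the 10 were lower. The targeted *Eya1* is among these 9, at 189 and 171 CPM in the controls and 16.7 and 12.5 CPM in Eya1cKO. The summed CPM was 993 and 1015 against 3033 and 3093 for 10 podocyte markers (9 higher), 698 and 711 against 1254 and 1317 for 10 endothelial markers (9 higher), and 1725 and 1713 against 3526 and 3511 for 8 stromal markers (5 higher, 1 lower). Adrenal cortex markers (7 of 7 tested higher) summed to 19.1 and 12.2 against 729 and 693 CPM, with *Cyp17a1* at or under 3 reads in every library, and sympathoadrenal markers (8 of 9 higher) to 58.2 and 67.1 against 600 and 627 CPM. In bulk libraries, fewer cells of a type and less RNA per cell cannot be told apart.

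Of the 60 guidance genes, 57 had a read in every library and 59 passed the filter on low counts. 15 of the 59 (25.4%) differed between the genotypes at an adjusted p under 0.05, the threshold used throughout (edgeR quasi-likelihood test, Benjamini-Hochberg adjustment over all genes tested). Over all 19041 genes tested the share was 9.56%. At an unadjusted p under 0.05 (edgeR) stood 24 of the 59 guidance genes and 5479 of the 19041 genes. With at least 10 counts in every library, 17 of 57 guidance genes and 2243 of 14490 genes passed the adjusted threshold. Guidance genes had a smaller spread between libraries than all genes, as given below, and its part in these shares was not tested. 3 guidance genes fell, *Slit1*, *Sema3f* and *Robo2*, where 4.41% of all genes were lower. 12 rose, *Epha3*, *Sema3e*, *Sema3g*, *Nrp2*, *Robo4*, *Efnb2*, *Sema3c*, *Plxnd1*, *Efnb1*, *Sema5a*, *Slit3* and *Nrp1*, where 5.15% of all genes were higher. The median log2 fold change, Eya1cKO over control, was 0.27 over the 59 guidance genes and 0.016 over all genes tested, with 41 values above 0 and 18 below. Both Eya1cKO libraries lay above both controls for 28 guidance genes and below them for 10, together 64.4% of those tested against 55.3% of all genes.

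**Figure D1:**
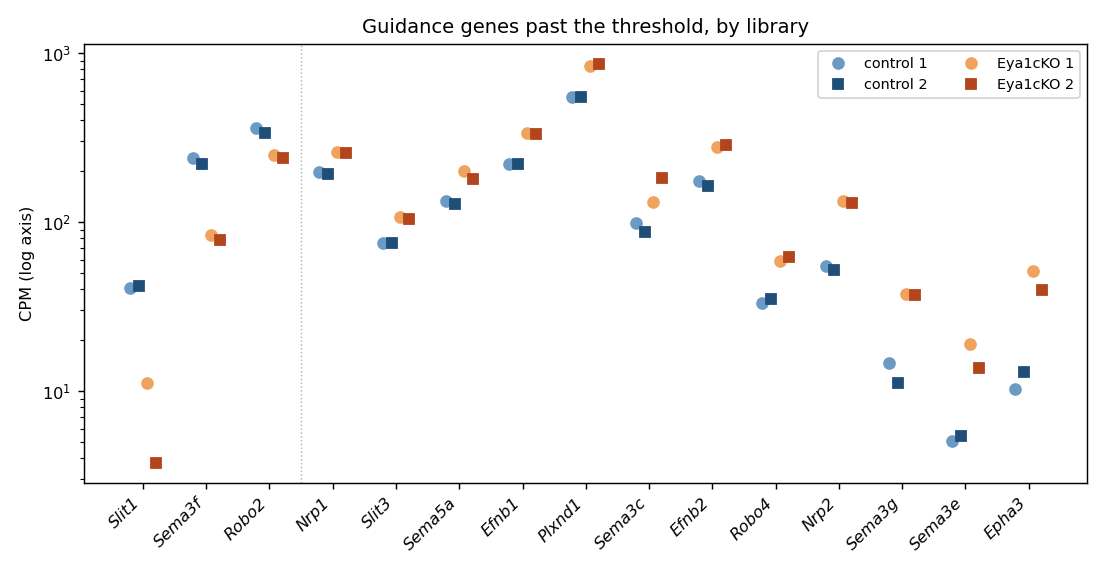
CPM on a log axis of the 15 guidance genes past the threshold, 1 point per library (circles and squares, blue for control and orange for Eya1cKO), ordered by log2 fold change with the 3 that fell left of the dotted line. The genotypes do not overlap for any of the 15, and *Slit1* has the widest gap between the Eya1cKO libraries, at 11.2 and 3.76 CPM.

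Most of these changes were modest in size. 9 of the 15 had a log2 fold change under 1 in either direction, and 7 (*Sema3f*, *Robo2*, *Nrp2*, *Plxnd1*, *Efnb1*, *Efnb2* and *Epha3*) were past the threshold under each of the 8 other settings that used all 4 libraries. The calls depended on the controls. With 1 library left out, its genotype holds a lone library, and the spread comes from the other genotype alone. The number of calls then fell without either control library and rose without either Eya1cKO library. This swing was genome-wide and not particular to the guidance genes. The log2 fold changes of the 15 kept their direction in each of these fits.

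**Figure D2:**
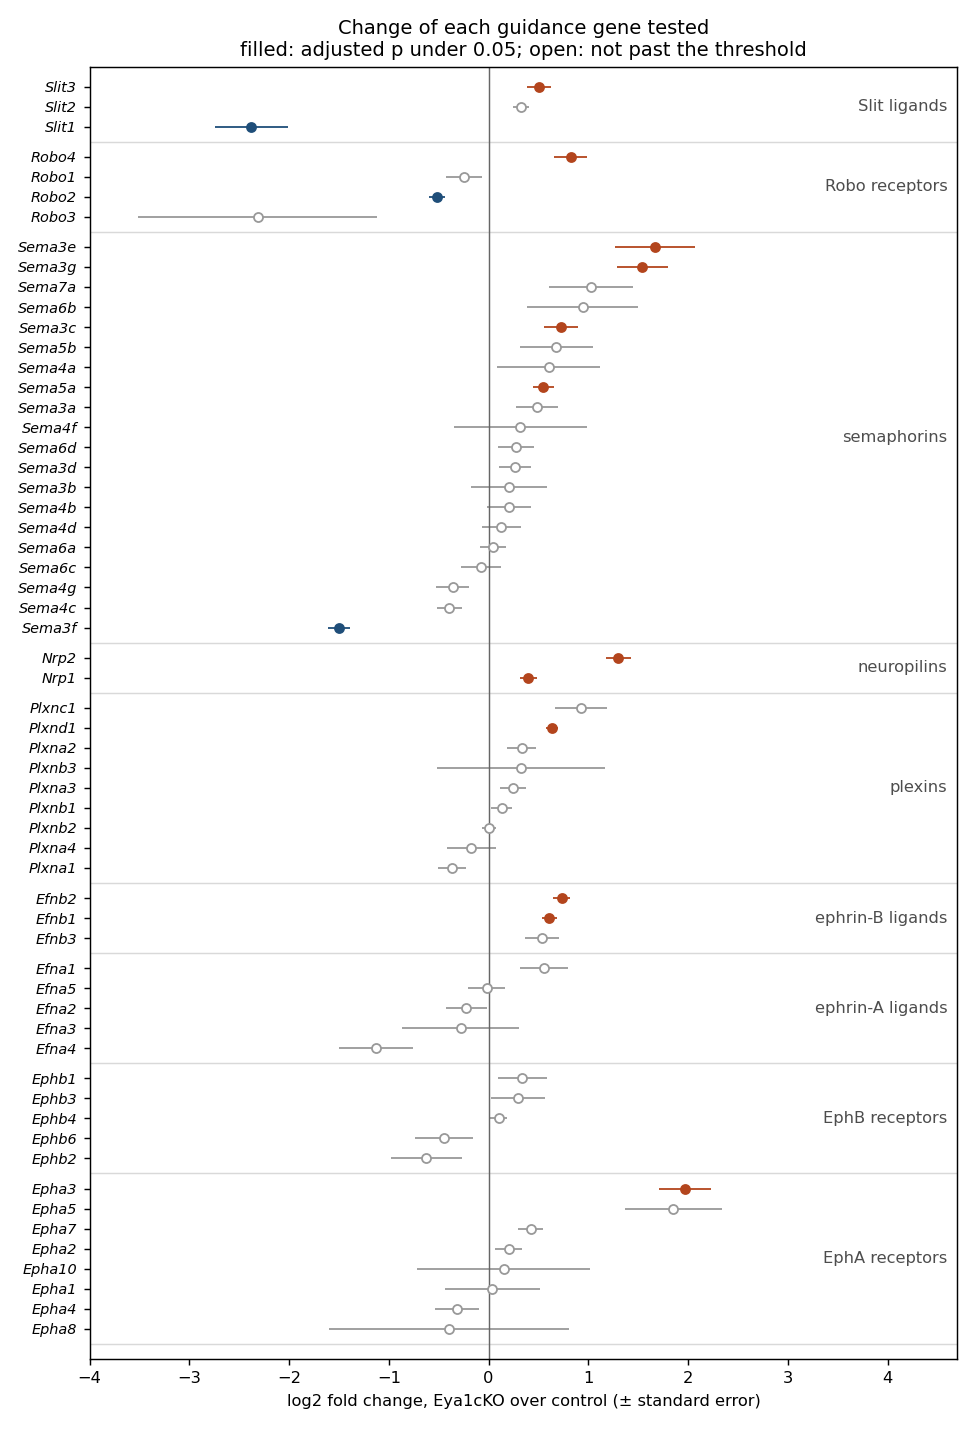
Log2 fold change of the 59 guidance genes tested, Eya1cKO over control, by family; horizontal bars are ± 1 standard error of the fit, filled points have an adjusted p under 0.05 (blue lower, red higher in Eya1cKO) and open points do not. The values run from -2.38 for *Slit1* to 1.97 for *Epha3*, and the ephrin-B ligands and neuropilins lie wholly to the right of 0.

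Promoter windows, 250 bases before to 50 after each RefSeq transcript start, were read for these genes. They were found for 53 of the 60 guidance genes, 69 windows in all, of which 57 end inside a GENCODE transcript of the gene and the others do not. The windows of *Robo1*, *Sema3a*, *Sema4d* and *Plxna2* lie farthest from the outermost GENCODE start of the gene, at 354843, 271370, 37064 and 1611 bases. The 250 bases before the start are printed for 4 genes that moved under every setting on all 4 libraries: *Plxnd1* and *Efnb2*, which rose, are shown as a receptor and a ligand of vessels, *Epha3* as the largest rise, and *Robo2* as the receptor that fell. All are on GRCm38.p6: *Plxnd1* at chr6:115995006-115995255, *Efnb2* at chr8:8661243-8661492, *Epha3* at chr16:63864176-63864425 and *Robo2* at chr16:74411826-74412075, each on the minus strand and written 5′ to 3′. In *Plxnd1* and *Efnb2* capitals mark GC boxes (GGGCGG on either strand), in *Epha3* they mark the right part of the REST element RE1 (GGACAGCG, here on the opposite strand), and *Robo2* holds neither.
Plxnd1: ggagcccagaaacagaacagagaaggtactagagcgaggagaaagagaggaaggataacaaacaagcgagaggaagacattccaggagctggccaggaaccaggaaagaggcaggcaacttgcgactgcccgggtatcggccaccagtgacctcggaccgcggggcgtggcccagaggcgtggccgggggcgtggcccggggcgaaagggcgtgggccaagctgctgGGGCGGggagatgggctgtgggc
Efnb2: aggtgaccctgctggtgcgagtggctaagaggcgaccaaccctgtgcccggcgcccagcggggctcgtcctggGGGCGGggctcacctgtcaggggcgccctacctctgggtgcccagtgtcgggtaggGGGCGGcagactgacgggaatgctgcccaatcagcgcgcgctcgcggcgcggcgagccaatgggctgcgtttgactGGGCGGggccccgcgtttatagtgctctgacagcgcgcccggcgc
Epha3: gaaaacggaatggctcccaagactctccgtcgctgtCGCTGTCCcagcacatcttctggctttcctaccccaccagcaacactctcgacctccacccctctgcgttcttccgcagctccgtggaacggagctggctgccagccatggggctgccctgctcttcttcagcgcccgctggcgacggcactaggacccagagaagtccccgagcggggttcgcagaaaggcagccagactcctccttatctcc
Robo2: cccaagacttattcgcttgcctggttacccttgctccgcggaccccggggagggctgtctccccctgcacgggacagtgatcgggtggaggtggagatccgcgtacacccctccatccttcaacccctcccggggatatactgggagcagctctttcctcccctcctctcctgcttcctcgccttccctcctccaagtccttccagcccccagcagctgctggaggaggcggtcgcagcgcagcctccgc
GC boxes were common in these promoters. 71.0% of the 69 windows held GGGCGG on either strand, against 35.7% of all 32851 mouse windows, and the median GC content of the 250 bases before the start was 64.4% over the 53 genes against 52.4% over all windows. A TATA box (TATAAA on either strand) was in 2.90% of the guidance windows, those of *Efnb2* and *Slit2*, and in 13.6% of all windows. These 2 motifs were added after the data had been seen. The right part of RE1, the element that the repressor REST binds, was found in 3 windows (4.35%), those of *Epha3*, *Sema3d* and *Sema4c*, against 1.26% of all windows, and that of *Sema3d* does not end inside a GENCODE transcript. In *Epha3* it lay 206 bases before the start. Neither the left part of RE1 (TTCAGCACC), nor the full element with 2 to 4 bases between its parts, nor the MEF3 site TCAGGTTTC, which DNA-binding partners of *Eya1* recognize, was in any guidance window, and 0.371%, 0.00913% and 0.429% of all windows held them. Such a match is a run of letters and not a bound site. *Epha3* rose, *Sema3d* did not pass the test (log2 fold change 0.27, adjusted p = 0.31, edgeR) and *Sema4c* did not either (-0.39, adjusted p = 0.1).

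*Slit1* was the guidance gene that fell most. This secreted ligand, best known from the forebrain and spinal cord (chr19:41600257-41743665, minus strand), had 1418 and 1562 reads in the controls and 253 and 66 in Eya1cKO, or 40.6, 41.7, 11.2 and 3.76 CPM. The controls were close to each other, and both Eya1cKO libraries were far below them although they differed widely among themselves. The fitted level was 19.3% of control (log2 fold change -2.38, SE 0.36, edgeR adjusted p = 0.011). The size rested on which Eya1cKO library was used, with a log2 fold change of -3.46 without Eya1cKO 1 and -1.89 without Eya1cKO 2. *Slit3* moved the other way, from 74.9 and 74.9 CPM to 108 and 105 CPM (0.50, SE 0.12, adjusted p = 0.044). *Slit2*, the Slit that limits ureteric bud outgrowth, had 181 and 181 CPM in the controls and 227 and 226 CPM in Eya1cKO, which do not overlap but missed the threshold (0.33, SE 0.08, adjusted p = 0.058), and it was called by DESeq2.

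Since *Slit1* fell while the other Slits did not, the make-up of the family shifted. Levels between genes are compared here as CPM per kb of merged exon length. The summed Slit level was 26.3 to 28.6 CPM per kb in all 4 libraries, whereas without length scaling it was 296 and 298 CPM in the controls and 346 and 334 CPM in Eya1cKO. The share of *Slit1* in the per-kb sum was 26.3% ± 0.363 (SD, n = 2) in the controls and 6.62% and 2.37% in Eya1cKO 1 and Eya1cKO 2, and that of *Slit3* 46.7% ± 0.258 and 63.2% ± 1.62. *Slit1* and *Slit2* stood at 6.95 and 7.12 CPM per kb in the controls and at 1.26 and 8.92 CPM per kb in Eya1cKO. These comparisons depend on the length used: with the longest transcript *Slit1* and *Slit2* stood at 7.26 and 18.2 CPM per kb in the controls, already apart. With the longest transcript in place of merged exons *Slit2* ranks first, with 45.7% and 51.3% of the sum, and *Slit1* falls from 18.3% to 2.94%. All family shares are given as a description, with no test.

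The 4 Robo genes split as well. *Robo2* (chr16:73891839-74411825, minus strand), the Slit receptor of the early kidney mesenchyme and later of podocytes, had the most Robo reads: 12547 and 12601 in the controls, 5600 and 4171 in Eya1cKO. In CPM these are 359, 337, 248 and 238, so that each Eya1cKO library lay well below each control (log2 fold change -0.52, SE 0.08, edgeR adjusted p = 0.012). *Robo4* (chr9:37401897-37415115, plus strand), the Robo receptor of endothelium, rose from 33.3 and 34.9 CPM to 58.8 and 62.1 CPM (0.82, SE 0.17, adjusted p = 0.027). The endothelial markers given above rose in the same libraries, from a summed 698 and 711 CPM to 1254 and 1317 CPM, and their part in the rise of *Robo4* was not tested. *Robo1*, the other broadly expressed Slit receptor, had 238, 236, 241 and 152 CPM and only Eya1cKO 2 was low (-0.25, SE 0.18, adjusted p = 0.40). *Robo3*, a divergent receptor of commissural neurons, had 39, 43, 9 and 0 reads. It passed the filter through the control libraries, and 3 reads, the limit that a count of 0 allows, are 0.171 CPM in Eya1cKO 2.

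In the summed Robo level of 34.95 to 42.0 CPM per kb, *Robo2* held 49.5% ± 1.32 (SD, n = 2) in the controls and 38.1% ± 2.73 in Eya1cKO, and *Robo4* held 15.5% ± 0.813 and 30.5% ± 4.25. With the longest transcript as length the *Robo4* share was 8.72% and 18.6%. *Robo2* was the first Robo gene per kb in the controls. In Eya1cKO 1 *Robo1* and *Robo2* held 36.1% and 36.2%, and with the longest transcript *Robo1* came first there (43.8% against 39.7%). *Robo1* and *Robo2* are neighbours on chromosome 16, 846 kb apart on opposite strands with no protein-coding gene between them, and *Robo4* and *Robo3* are neighbours on chromosome 9, 0.553 kb apart on opposite strands. In both pairs 1 gene passed the test and its neighbour did not, and the difference between neighbours was not tested.

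**Figure D3:**
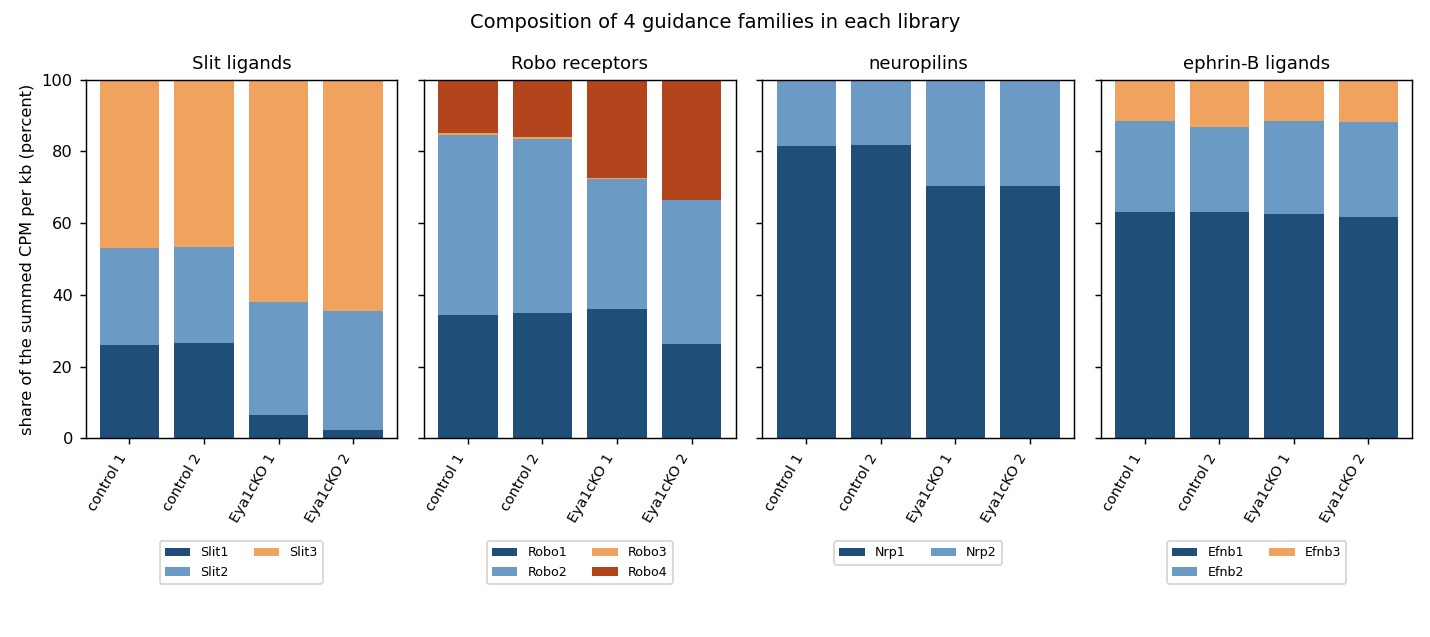
Share in percent of each gene in the summed CPM per kb of its family, 1 stacked bar per library, for the Slit ligands, Robo receptors, neuropilins and ephrin-B ligands. *Slit1* shrinks from 26.3% to 4.50% of the Slits, *Robo4* grows from 15.5% to 30.5% of the Robo receptors and *Nrp2* from 18.4% to 29.6% of the neuropilins, while *Efnb1* holds 63.1% and 62.1% of the ephrin-B ligands (means of 2 libraries).

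Class 3 semaphorins held 4 of the 5 semaphorins that passed the test. Of the 7 class 3 genes 1 fell and 3 rose, and of the 13 genes of classes 4 to 7 none fell and 1 rose. Over all genes tested 4.41% were lower and 5.15% higher, and the difference between the classes was not tested. *Sema3f* (chr9:107681500-107710475, minus strand), a repellent that acts mainly through neuropilin 2, had 8327, 8225, 1882 and 1365 reads, or 238, 220, 83.3 and 77.8 CPM. Within each genotype the libraries were close, and the Eya1cKO level was 35.3% of control (log2 fold change -1.50, SE 0.11, edgeR adjusted p = 9.3e-04). *Sema3f* was the first semaphorin per kb in the controls, at 44.1 CPM per kb, and the third in Eya1cKO, at 15.5 CPM per kb. Its share of all semaphorins went from 27.04% ± 1.34 (SD, n = 2) to 9.99% ± 0.318.

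In the controls the class 3 genes that rose had lower levels than *Sema3f*. *Sema3g*, which is known from endothelium and podocytes, had 14.7 and 11.1 CPM in the controls and 37.7 and 36.9 CPM in Eya1cKO (log2 fold change 1.54, SE 0.26, edgeR adjusted p = 0.015). *Sema3e*, the ligand that binds plexin D1 without a neuropilin, had 177, 203, 431 and 241 reads, or 5.07, 5.42, 19.1 and 13.7 CPM (1.67, SE 0.40, adjusted p = 0.047). *Sema3c*, which signals through both neuropilins, had 99.2 and 87.3 CPM against 131 and 181 CPM (0.73, SE 0.17, adjusted p = 0.043). For each of these the genotypes did not overlap, though *Sema3e* was higher in Eya1cKO 1 and *Sema3c* in Eya1cKO 2. The summed podocyte markers were 993 and 1015 CPM in the controls and 3033 and 3093 CPM in Eya1cKO, and their part in the rise of *Sema3g* was not tested. The other class 3 genes, *Sema3a* (44.8, 37.9, 48.99 and 68.6 CPM), *Sema3b* (12.8, 15.5, 20.6 and 10.9 CPM) and *Sema3d* (69.2, 65.4, 72.0 and 91.4 CPM), did not pass. The summed class 3 level was 77.5 and 71.1 CPM per kb in the controls and 60.9 and 67.8 CPM per kb in Eya1cKO. Without length scaling the genotypes overlapped, at 484 and 442 against 412 and 480 CPM.

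Among the membrane-bound semaphorins, *Sema5a*, a transmembrane protein with thrombospondin repeats, rose from 134 and 128 CPM to 202 and 181 CPM (log2 fold change 0.55, SE 0.10, edgeR adjusted p = 0.021). Its relative *Sema5b* had 18.8, 26.3, 47.5 and 22.5 CPM, so that only Eya1cKO 1 was high. None of the 6 class 4 genes passed (edgeR; 1 at an unadjusted p under 0.05, 0 with DESeq2). That gene was *Sema4c*, a ligand of plexin B2, with 138, 158, 119 and 105 CPM, and the others were *Sema4a* (log2 fold change 0.60), *Sema4b* (0.20), *Sema4d* (0.13), *Sema4f* (0.32) and *Sema4g* (-0.36). None of the 4 class 6 genes passed either (edgeR; 0 at an unadjusted p under 0.05, 0 with DESeq2), with log2 fold changes of 0.04 for *Sema6a*, 0.94 for *Sema6b*, -0.08 for *Sema6c* and 0.27 for *Sema6d*. *Sema6b* was high in Eya1cKO 1 alone, at 19.5 CPM against 6.93, 7.10 and 5.93 CPM in the other libraries. *Sema7a*, the lipid-anchored semaphorin, had 8.36, 5.80, 12.1 and 17.2 CPM (1.03, SE 0.42, adjusted p = 0.16).

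Both neuropilins rose. Neuropilins are co-receptors with a short cytoplasmic tail, shared by class 3 semaphorins and vascular endothelial growth factors. *Nrp2* (chr1:62703285-62818695, plus strand) had 1919, 1935, 2995 and 2281 reads, or 55.0, 51.7, 133 and 130 CPM, so that the genotypes were far apart and the libraries of each close together (log2 fold change 1.30, SE 0.12, edgeR adjusted p = 0.0020). *Nrp1* (chr8:128358604-128503363, plus strand) had 199, 192, 261 and 255 CPM (0.40, SE 0.08, adjusted p = 0.030). *Nrp1* remained the more abundant per kb, at 19.99 against 4.50 CPM per kb in the controls and 26.3 against 11.1 CPM per kb in Eya1cKO. The share of *Nrp2* was 18.4% ± 0.303 (SD, n = 2) and 29.6% ± 0.0712. *Sema3f* and *Nrp2*, a ligand and its main co-receptor, thus moved in opposite directions. With the longest transcript as length the *Nrp2* share was 12.9% and 21.6%.

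Plexins carry the semaphorin signal into the cell through a domain that acts on small Ras-like GTPases. 1 of the 9 passed the test. *Plxnd1* (chr6:115954811-115995005, minus strand), the plexin of endothelium and the receptor of *Sema3e*, was the guidance gene with the most reads in Eya1cKO, at 19103, 20515, 18962 and 15119. It had 547, 548, 839 and 862 CPM, with the libraries of each genotype almost equal (log2 fold change 0.64, SE 0.06, edgeR adjusted p = 0.0019). *Plxnb2*, a receptor of class 4 semaphorins found in many epithelia, overlapped between the genotypes, at 514, 552, 550 and 522 CPM (0.01, SE 0.07, adjusted p = 0.95). *Plxnd1* and *Plxnb2* were the first plexins per kb in the controls, at 74.98 and 69.04 CPM per kb, and with the longest transcript as length *Plxnb2* came first. In Eya1cKO *Plxnd1* was first on both lengths, at 116 against 69.4 CPM per kb with merged exons.

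None of the 4 class A plexins, which pair with neuropilins, passed (edgeR; 1 at an unadjusted p under 0.05, 0 with DESeq2). That gene was *Plxna1*, with 220, 232, 200 and 148 CPM (log2 fold change -0.37, SE 0.14, adjusted p = 0.14), and 10.7% of its exon bases overlap exons of a gene on the other strand. *Plxna2* had 54.2, 56.9, 67.1 and 73.5 CPM, *Plxna3* 86.4, 78.1, 103 and 91.1 CPM and *Plxna4* 31.7, 26.3, 27.8 and 23.1 CPM. None of the 3 class B plexins passed (edgeR; 0 at an unadjusted p under 0.05, 0 with DESeq2): *Plxnb1*, a receptor of *Sema4d*, had 222, 221, 263 and 221 CPM, and *Plxnb3* had only 26, 43, 37 and 11 reads. *Plxnc1*, the receptor of *Sema7a*, had 17.3, 20.7, 30.8 and 42.6 CPM (0.92, SE 0.26, adjusted p = 0.075) and was called by DESeq2. Ligand and receptor both had higher values in both Eya1cKO libraries than in the controls, and neither passed the main test. The summed plexin level was 208 and 213 CPM per kb in the controls and 259 and 248 CPM per kb in Eya1cKO.

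The 3 ephrin-B genes had higher values in Eya1cKO, and 2 passed the test. *Efnb2* (chr8:8617434-8661242, minus strand), the ephrin of arteries and of developing glomeruli, had 6096, 6156, 6284 and 4997 reads, or 175, 164, 278 and 285 CPM (log2 fold change 0.73, SE 0.09, edgeR adjusted p = 0.0045). *Efnb1* (chrX:99136130-99148991, plus strand), a ligand expressed by many mesenchymal cells and by podocytes, had 219, 220, 338 and 331 CPM (0.61, SE 0.08, adjusted p = 0.0058). In both genes the libraries of a genotype lay close together and the genotypes were well apart. *Efnb3*, known from the midline of the nervous system, had 36.8, 42.1, 56.7 and 58.1 CPM (0.54, SE 0.17, adjusted p = 0.098). The family kept its make-up: *Efnb1* held 63.1% ± 0.0268 (SD, n = 2) and 62.1% ± 0.733, *Efnb2* 24.6% ± 1.11 and 26.3% ± 0.506, and *Efnb3* 12.3% ± 1.14 and 11.6% ± 0.227 in control and Eya1cKO. The summed ephrin-B level was 100.5 and 101 CPM per kb in the controls and 156 and 156 CPM per kb in Eya1cKO.

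Among their receptors, none of the 5 EphB genes passed (edgeR; 0 at an unadjusted p under 0.05, 0 with DESeq2). *Ephb4*, the partner of ephrin-B2 on veins, was by far the first of them per kb, at 48.3 CPM per kb in the controls and 52.0 CPM per kb in Eya1cKO. It had 218, 230, 234 and 248 CPM (log2 fold change 0.10, SE 0.09, adjusted p = 0.47). *Ephb2*, a receptor for all ephrin-B ligands, had 83.4, 82.7, 77.0 and 25.7 CPM, and its lower mean rested on Eya1cKO 2 (-0.63, SE 0.36, adjusted p = 0.29). *Ephb1* (20.7, 18.9, 24.9 and 25.3 CPM), *Ephb3* (20.7, 20.7, 29.6 and 20.1 CPM) and *Ephb6*, which lacks kinase activity (24.5, 20.5, 18.1 and 14.4 CPM), did not pass. The summed EphB level was 66.3 and 67.4 CPM per kb in the controls and 69.3 and 66.0 CPM per kb in Eya1cKO.

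Among the EphA receptors 1 of the 8 tested passed. *Epha3* (chr16:63543534-63864175, minus strand), a receptor of mesenchyme and of developing neurons, had 360, 487, 1153 and 693 reads, or 10.3, 13.0, 51.0 and 39.5 CPM. Both Eya1cKO libraries were well above the controls, and the fitted level was 3.92 times the control level (log2 fold change 1.97, SE 0.26, edgeR adjusted p = 0.0073). Its share of the EphA receptors went from 3.51% ± 0.399 (SD, n = 2) to 11.6% ± 0.474, yet it remained below *Epha2*, *Epha4* and *Epha7* per kb. *Epha5*, a mainly neuronal receptor, had 133, 124, 233 and 281 reads and a fitted change of like size with a larger error (1.85, SE 0.49, adjusted p = 0.061), and was called by DESeq2. The 9 sympathoadrenal markers, cells of neural origin, summed to 58.2, 67.1, 600 and 627 CPM and the 8 stromal markers to 1725, 1713, 3526 and 3511 CPM in the same order of libraries, and their part in the values of *Epha3* and *Epha5* was not tested. *Epha7* had 75.5, 77.6, 108 and 95.9 CPM (0.42, SE 0.13, adjusted p = 0.088).

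The other EphA genes did not pass. *Epha2*, the first of them per kb at 14.2 and 16.3 CPM per kb in control and Eya1cKO, had 65.2, 67.2, 75.6 and 76.9 CPM (log2 fold change 0.20). *Epha4*, which binds ligands of both ephrin classes, had 87.6, 102, 93.0 and 55.7 CPM, with Eya1cKO 2 low (-0.32). *Epha1* had 338, 367, 308 and 95 reads. The kinase-inactive *Epha10* had 60, 26, 21 and 32 reads, *Epha8* had 23, 41, 27 and 0, and *Epha6* had 7, 16, 1 and 0 and was removed by the filter. For *Epha8* and *Epha6* a count of 0 in Eya1cKO 2 allows up to 3 reads, or 0.171 CPM.

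None of the 5 ephrin-A genes, the lipid-anchored ligands of these receptors, passed (edgeR; 1 at an unadjusted p under 0.05, 0 with DESeq2). That gene was *Efna4*, with 888, 940, 351 and 115 reads, or 25.4, 25.1, 15.5 and 6.56 CPM. Both Eya1cKO libraries were below the controls but unlike each other (log2 fold change -1.13, SE 0.37, adjusted p = 0.11). The log2 fold change was -1.96 without Eya1cKO 1 and -0.72 without Eya1cKO 2. In *Efna4*, 10.5% of the exon bases overlap a gene on the other strand. *Efna1*, an ephrin of endothelium and epithelia, had 20.5, 19.6, 26.99 and 32.5 CPM (0.56, SE 0.24, adjusted p = 0.18). *Efna2* (49.3, 45.2, 45.9 and 33.9 CPM), *Efna3* (204, 157, 75 and 90 reads) and *Efna5* (44.0, 49.1, 49.8 and 41.3 CPM) overlapped between the genotypes. *Efna1*, *Efna3* and *Efna4* stand in a row on chromosome 3, with 32.8 kb and 10.4 kb between them, and their log2 fold changes of 0.56, -0.28 and -1.13 differed in sign. *Efna3* is the guidance gene with the largest exon overlap, 14.1% with genes on the other strand. The summed ephrin-A level was 63.6, 61.5, 59.7 and 50.1 CPM per kb.

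The 3 guidance genes that fell did so in libraries in which nephron progenitor markers, the targeted *Eya1* among them, were also low. The summed level of these markers was 2048 and 2056 CPM in the controls and 424 and 388 CPM in Eya1cKO. Early nephron markers (5 of 8 lower) summed to 1363, 1361, 773 and 861 CPM. The part of these cells in the values of *Slit1*, *Sema3f* and *Robo2* was not tested. The 10 endothelial markers all had positive log2 fold changes, with a median of 0.85. Of the guidance genes named above as known from vessels, *Robo4*, *Plxnd1*, *Efnb2*, *Nrp1*, *Nrp2* and *Sema3g* rose, while *Ephb4* (0.10, adjusted p = 0.47, edgeR) and *Efna1* (0.56, adjusted p = 0.18) did not pass the test. This grouping was made after the values were seen, and the part of endothelial cells in these values was not tested. Ureteric bud markers (2 lower and 1 higher of 8) summed to 240, 251, 215 and 174 CPM. Schwann and glial markers (1 of 6 higher) summed to 29.0, 27.5, 40.7 and 31.7 CPM, with *Cdh19* at 0 in both controls. Skeletal muscle markers summed to 14.5, 14.7, 24.7 and 9.18 CPM with 0 of 3 past the threshold and *Myf5* without a read, and blood markers to 89.6, 91.1, 76.4 and 103 CPM with 0 of 5 past the threshold (edgeR).

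The spread between libraries of a genotype limits which guidance genes could be called. The median absolute log2 ratio between libraries was 0.101 for the controls and 0.270 for Eya1cKO over the guidance genes tested. Over all genes tested it was larger, at 0.180 and 0.494. Only genes with a read in both libraries enter a ratio, so *Epha8* and *Robo3* are left out of the Eya1cKO value. Of the 57 guidance genes with a read in every library, 7 lay over 2-fold apart between the Eya1cKO libraries, *Epha1*, *Ephb2*, *Slit1*, *Efna4*, *Plxnb3*, *Sema5b* and *Sema6b*, and each was lower in Eya1cKO 2. Their log2 ratios, Eya1cKO 2 over Eya1cKO 1, ran from -1.72 for *Sema6b* to -1.08 for *Sema5b*. Over all genes with reads in both, 28.7% lay over 2-fold apart, and 53.2% of these were lower in Eya1cKO 2. Of the 7, *Slit1* alone passed the test. Between the controls *Epha10* alone of the 57 lay over 2-fold apart, beside 11.5% over all genes. *Epha6*, which the filter removed, was over 2-fold apart there as well (log2 ratio 1.09). The 3 genes outside this count, *Epha6*, *Epha8* and *Robo3*, had no read in Eya1cKO 2.

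**Figure D4:**
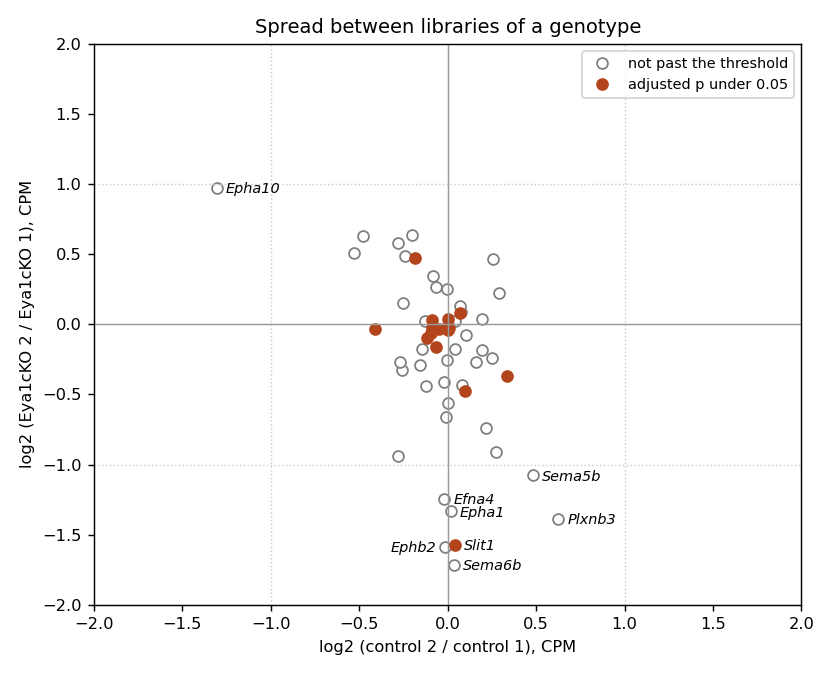
Log2 ratio of CPM between the control libraries (horizontal axis) and between the Eya1cKO libraries (vertical axis) for the 57 guidance genes with a read in every library; filled points have an adjusted p under 0.05 and dotted lines mark 2-fold. The 7 genes below the lower dotted line are all lower in Eya1cKO 2, from *Sema5b* at -1.08 to *Sema6b* at -1.72, and *Epha10* alone passes 2-fold between the controls.

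Other genes of the same pathways were taken as lists of co-receptors, intracellular effectors and further guidance families. 68 were in the tables and 67 were tested, of which 1 fell and 13 rose (20.9%, with a median log2 fold change of 0.15), beside the 9.56% of all genes tested. Of 12 Slit-Robo effectors 1 fell and 4 rose. *Enah*, which promotes actin polymerization at the leading edge, had 9833, 10906, 3642 and 3381 reads (log2 fold change -0.70, SE 0.10, edgeR adjusted p = 0.0099). *Srgap1* and *Srgap3*, GTPase-activating proteins named for their binding to Robo, rose on the log2 scale by 0.71 (SE 0.09, adjusted p = 0.0063) and 0.84 (SE 0.14, adjusted p = 0.016). *Gpc1*, a heparan sulfate proteoglycan that binds Slits, rose by 0.54 (SE 0.08, adjusted p = 0.0095), and the other gene that rose was *Dag1*, the Slit-binding dystroglycan (0.45, SE 0.10, adjusted p = 0.033).

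Of 23 semaphorin and plexin effectors and co-receptors tested 6 rose and none fell. *Dpysl3*, a collapsin response mediator of growth cones, had 2403, 2353, 4461 and 4165 reads, more in each Eya1cKO library than in either deeper control (log2 fold change 1.72, SE 0.13, edgeR adjusted p = 0.0011). *Arhgef12*, which binds class B plexins, rose by a log2 fold change of 0.52 (SE 0.08, adjusted p = 0.010), and *Mical3*, of a family of actin-oxidizing enzymes, by 0.56 (SE 0.11, adjusted p = 0.029). *Mical2*, *Fes* and *L1cam* rose by 0.998, 1.05 and 1.15 on the same scale. *Dag1*, *Mical2*, *Fes* and *L1cam* are named after their values were seen. Of 15 Eph and ephrin effectors 1 rose, the phosphatase *Ptpn13* (0.34, SE 0.08, adjusted p = 0.047). Of 17 netrin, RGM and FLRT genes 2 rose. *Ntng2*, a lipid-anchored netrin G, had 417, 406, 1452 and 1788 reads (2.84, SE 0.30, adjusted p = 0.0031), and *Flrt2*, a ligand of Unc5 receptors, rose by 0.53 (SE 0.11, adjusted p = 0.027). The number of these genes called also fell with either control library left out and rose with either Eya1cKO library left out, as it did over all genes.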

How the data were processed

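Gene counts of 4 RNA-seq libraries were used. Per the labels and the study's methods, random-primed stranded libraries (SMARTer) were read single-end, and the authors mapped the reads to mm10 with HISAT2, counted them per gene with HTSeq-count on Ensembl annotation and tested with DESeq2. Tool versions and the strand setting of the counting are not given in the sources used here, so reads of overlapping genes on opposite strands may not be separable. 14 guidance genes share exon bases with another gene; of the 15 past the threshold only *Nrp1* does, over 0.818% of its exons. The deposited files hold raw whole-number counts per gene, not normalized. Rows that name no gene were left out of library sizes; ambiguous reads were 2.50% to 3.13% of each library, while reads without a feature (13.9% and 12.9% in the controls, 22.7% and 20.9% in Eya1cKO) and reads not aligned (6.32% and 6.69%, 12.9% and 12.7%) differed with genotype, and their part in the results was not tested.

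From these counts, edgeR 4.0.16 in R 4.3.3 was run with filterByExpr (minimum count 10), TMM factors and the quasi-likelihood test on genotype alone, with Benjamini-Hochberg adjustment over 19041 genes and a threshold of 0.05. Standard errors were obtained by dividing the size of the log2 fold change by the root of F. CPM is counts over TMM-scaled totals. Gene lengths, coordinates (GRCm38) and 52489 symbols of 52636 identifiers came from GENCODE M21, a later release than the authors' annotation, and promoters from RefSeq on GRCm38.p6. DESeq2 1.42.0, other scalings, filters and edgeR settings, and leaving out each library were tried. The replicate numbers did not pair the libraries (correlation of deviations 0.0062), and libraries of a genotype differed beyond counting noise (chi-square per degree of freedom 9.68 for control and 49.7 for Eya1cKO). A count of 0 allows up to 3 reads; such limits cover counting error only.

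The guidance genes, the other lists and the tests were chosen with earlier results of these data known. Every guidance gene is named, with full statistics for those past the threshold; of the other lists, the rule named at most the 3 genes of smallest p past the threshold in each direction of a list, and 4 more were named after their values were seen.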

Additional observations from a re-analysis of the deposited data

How the results depend on the processing

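The main fit called 15 guidance genes, which kept their direction in every fit. The other fits on all 4 libraries without a block called between 10 and 18 of those tested: 15 with DESeq2 size factors, 16 with library totals alone, 10 with no filter on low counts (31192 genes tested), 17 with at least 10 counts in every library, 15 with robust estimation, 11 with the legacy method and 18 with the DESeq2 Wald test. Over all genes these fits called, in that order, 1792, 1778, 1055, 2243, 1705, 1096 and 2734, beside 1820 in the main fit. Each tested 19041 genes save the fit with no filter and that with at least 10 counts (14490 genes). *Robo4*, *Slit3*, *Nrp1*, *Sema3c* and *Sema3e* were lost without the filter, and *Slit1*, *Slit3*, *Sema3c* and *Sema3e* with the legacy method. The replicate block called 7 guidance genes, 6 of the other list (main 14) and 621 of all 19041 genes. Among guidance genes it lost *Robo4*, *Slit1*, *Slit3*, *Nrp1*, *Sema3c*, *Sema3e*, *Sema3g* and *Sema5a*. The replicate numbers were not shown to pair the libraries. Without 1 library the guidance count ran from 0 to 33 and that of the other list from 0 to 36; the other list had 7 with no filter and 8 with the legacy method. Of the other list, *Dag1*, *Mical2*, *Mical3*, *Fes*, *L1cam* and *Ptpn13* were lost with no filter, with the legacy method and with the replicate block. *Flrt2* was lost with no filter and with the block, and *Srgap3* with the block. A lone library left in a genotype was assumed to vary like the other genotype. The median log2 fold change of all genes was 0.016, -0.21 with no filter, and between -0.16 and 0.059 without 1 library. None of the 15 guidance genes or 14 others past the threshold changed sign in any of these fits. Of those not past it, *Epha1* (main 0.039) had -0.022 with DESeq2, -0.030 with the legacy method and -3.5e-05 with the replicate block; *Efna5* had 0.020 with library totals; *Plxnb2* had -0.0076 with no filter and -0.0038 with at least 10 counts. Without 1 library *Epha1* ran from -0.86 to 0.47, *Epha10* from -0.39 to 0.90, *Epha8* from -7.74 to 0.42, *Ephb3* from -0.052 to 0.50, *Robo1* from -0.65 to 0.0073, *Efna3* from -0.60 to 0.029, *Efna5* from -0.18 to 0.081, *Plxnb1* from -0.018 to 0.23, *Plxnb2* from -0.062 to 0.045, *Plxnb3* from -0.61 to 0.76, *Sema3b* from -0.38 to 0.52, *Sema4a* from -0.0044 to 0.93, *Sema4d* from -0.12 to 0.28, *Sema5b* from -0.020 to 1.05, *Sema6a* from -0.10 to 0.16, *Sema6b* from -0.25 to 1.46, *Sema6c* from -0.23 to 0.064. The -7.74 of *Epha8* comes from the fit whose lone Eya1cKO library held no *Epha8* read, and it is not a measure of size. The cause of these changes was not tested. Shares of a family changed with the length used, as given for the Slits, Robo receptors and *Nrp2*. Depth limits the genes with the fewest reads, *Epha6*, *Epha8*, *Epha10*, *Plxnb3* and *Robo3*.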

Other observations

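Some of the guidance genes are neighbours in the genome. On chromosome 5, *Sema3d*, *Sema3a*, *Sema3e* and *Sema3c* follow one another on the plus strand, with gaps of 536, 423 and 3318 kb that hold 0, 1 and 16 protein-coding genes. Their log2 fold changes, Eya1cKO over control, were 0.27, 0.49, 1.67 and 0.73, and *Sema3e* and *Sema3c* passed the test (edgeR). On chromosome 9, *Sema3b* and *Sema3f* lie 72.3 kb apart on the minus strand, with 3 protein-coding genes between them, and had log2 fold changes of 0.20 and -1.50.

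Per kb of merged exons, the first 5 guidance genes of the controls were *Plxnd1* (74.98 CPM per kb), *Plxnb2* (69.0), *Efnb1* (63.6), *Ephb4* (48.3) and *Sema3f* (44.1). In Eya1cKO the first 3 were *Plxnd1* (116 CPM per kb), *Efnb1* (97.0) and *Plxnb2* (69.4), and *Sema3f* stood at place 16 of 60. *Slit1* went from place 30 to place 53. These orders are a description of 2 libraries each and depend on the gene length used.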
